A study of Mus musculus with 6 samples.

Results

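Cells take up glucose through facilitative transporters and split it in glycolysis, and many of these genes belong to the response to low oxygen. The transcription factor subunit encoded by Hif1a is marked for destruction by prolyl hydroxylases of the Egln family, which need oxygen to act. When oxygen is short the subunit persists, pairs with a partner encoded by Arnt and binds a short DNA core next to genes for glucose uptake, glycolysis, mitophagy, vessel growth and collagen synthesis. Keratinocytes of the epidermis, which has no vessels of its own, depend on Slc2a1 for glucose.

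The genes described here are 33 named genes of glucose uptake, glycolysis and the hypoxia response. A gene was included when a probe set was annotated to that symbol and to no other, which held for 30 of the 33, out of 18194 genes so annotated on the array. Where a gene had several such probe sets, the brightest on average over the 6 samples stood for it. Gpi1 and Eno1 were not matched, and the probe sets of Bnip3l were also annotated to its pseudogene. Of the 30 genes, 28 were tested. Car9, a cell surface carbonic anhydrase, fell under the filter on low signals, with a signal of 9.37 to 94.9. Gapdh was matched only by the manufacturer's control probe sets, which were not tested.

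The samples were skin from mouse embryos at embryonic day 16.5, 3 labelled Tcfap2c mutant and 3 labelled control, with 1 Affymetrix array each. Tcfap2c, now Tfap2c, encodes the epidermal transcription factor AP-2 gamma. The labels used here name no allele, strain, Cre driver or litter, so the kind of mutation and the cells it affects are not known here, and the description field of the control samples also speaks of the mutation. The labels do not say that the 6 samples came from separate litters, so the spread behind each p-value may be partly technical.

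All arrays were scaled to a trimmed mean of 500, and their medians lay between 110 and 131.3. The title of the series names epidermis where the sample labels name skin. The keratinocyte genes Krt5, Krt14, Krt10 and Lor were bright in every sample, with Krt14 at 10490 to 20085. The dermal collagen gene Col1a1 was at 18905 to 22257, and the skeletal muscle actin Acta1 at 17022 to 26176. Mutant sample 1 stood apart. It correlated with the rest at 0.94 on average, where the others had 0.961 to 0.97. The summed signal of 6 decidua and uterus genes was 60924 there and 408 to 803 in the other samples, and that of 6 smooth muscle genes was 58725 against 6513 to 8893. Of 7 listed decidua and uterus genes 6 had a probe set, and Prl3c1, Prl6a1 and Ceacam11 among them were under the filter on low signals. Prl3c1 was not high in mutant sample 1, at 2.18 against 3.52 to 40.4 elsewhere. Actg2, at 13445 in mutant sample 1, was counted in both sums. The sum of 7 basal keratinocyte genes was 35998 there, against 54131 to 66722. Itga6 among them was instead highest there, at 4259 against 3680 to 4221. The sum of 8 suprabasal keratinocyte genes was 166670 in mutant sample 1, close to the lowest of the others, which ran from 167090 to 207860. In bulk tissue, fewer cells of a type and less RNA per cell cannot be told apart. Results are therefore given with and without mutant sample 1.

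The comparison asked whether these genes differ in signal between mutant and control skin. Of the 28 genes tested, 21 had a higher and 7 a lower mean log2 signal in the mutant samples, against 46.5% higher among all 11589 genes tested. The median difference (mutant minus control) was 0.16 on the log2 scale, and that of all genes was -0.014. With all 6 samples none of the 28 passed an adjusted p of 0.05 in limma (adjusted p = 0.9999 for each), as 0.00863% of all genes did. At an unadjusted p under 0.05 in limma there were 5 higher and 0 lower members, where 1.58% of all genes were called higher and 1.84% lower. These were the glucose transporter genes Slc2a1 and Slc2a3, the oxygen sensor gene Egln3, the mitophagy receptor gene Bnip3 and the stress-responsive gene Ndrg1. In 5 members the groups did not overlap and the mutants were higher, as in 3.55% of all genes, and in 0 members were the mutants lower, as in 4.47%. The members past the unadjusted p numbered 1 without control sample 3 and 3 without control sample 1 or mutant sample 2, and the median difference was 0.075 without control sample 3 and 0.26 without control sample 2. Without mutant sample 1, 25 of the 28 differences were positive (49.0% of all genes) and the median was 0.21. There were then 11 higher and 0 lower members at an unadjusted p under 0.05 in limma, where 3.62% of all genes were called higher and 3.31% lower. The members are bright, with a median mean signal of 2392 against 709 for all genes tested.

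Promoter sequence is shown for the HIF target genes among these 5 that RefSeq's mouse promoter table (GRCm38.p6) held. They were chosen by an unadjusted p under 0.05 in limma and a positive difference. Each line gives the 250 bases before the gene's start, 5′ to 3′ on the gene's strand. Capitals mark the core letters bound by the HIF dimer, ACGTG or GCGTG, on either strand. Bnip3 lies on the minus strand (chr7:138909507-138909756), Slc2a1 on the plus strand (chr4:119108495-119108744) and Egln3 on the minus strand (chr12:54203875-54204124).
Bnip3: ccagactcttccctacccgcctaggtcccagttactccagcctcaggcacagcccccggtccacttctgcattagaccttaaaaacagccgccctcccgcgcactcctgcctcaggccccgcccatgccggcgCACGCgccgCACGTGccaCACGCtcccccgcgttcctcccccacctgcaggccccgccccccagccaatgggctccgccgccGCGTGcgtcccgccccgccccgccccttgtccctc
Slc2a1: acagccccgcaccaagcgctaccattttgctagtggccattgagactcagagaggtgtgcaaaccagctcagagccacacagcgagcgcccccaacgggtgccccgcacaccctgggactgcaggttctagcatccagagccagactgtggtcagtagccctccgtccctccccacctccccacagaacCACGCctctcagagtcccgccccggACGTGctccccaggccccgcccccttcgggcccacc
Egln3: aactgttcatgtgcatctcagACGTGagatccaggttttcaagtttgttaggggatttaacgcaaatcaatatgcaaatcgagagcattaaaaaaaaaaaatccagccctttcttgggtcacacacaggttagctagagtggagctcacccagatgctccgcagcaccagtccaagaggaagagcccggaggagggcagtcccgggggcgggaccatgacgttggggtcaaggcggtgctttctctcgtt
The Bnip3 window held 4 runs of core letters, of which the run 108 bases before the start read as a core on both strands. Slc2a1 held 2 runs and Egln3 held 1, at 229 bases before the start. Of the 26 tested members with an entry, 21 (80.8%) held at least 1 core, against 38.6% of the 27025 genes in the table. Many members were listed as known HIF targets, so this share is no independent evidence. The AP-2 palindrome GCCNNNGGC occurred in the Bnip3 window, 211 and 142 bases before the start, and not in the other windows shown. It occurred in 4 of the 26 members (15.4%), against 13.6% of all genes. Slc2a3 and Ndrg1 had no entry. A match of letters describes the sequence and is not evidence of binding.

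Slc2a3 had the largest difference among the members tested. It encodes GLUT3, a high-affinity glucose transporter best known from neurons and trophoblast. Mutant samples 1, 2 and 3 read 754.5, 3054 and 4766, and control samples 1, 2 and 3 read 510.6, 870.8 and 814.9. Mutant samples 2 and 3 lay well above every control sample, and mutant sample 1 lay within the control range. With all 6 samples the log2 difference was 1.61 (SE 0.56), a 3.06-fold ratio that did not pass the test (limma unadjusted p = 0.019). Without mutant sample 1, Slc2a3 rose by 2.38 on the log2 scale, 5.20-fold, with a limma adjusted p of 0.00765. It was then the 1 member past the threshold, which 27 of all genes tested (0.233%) passed. It also passed with array weights (difference 2.44, limma adjusted p = 0.0152), a setting in which 106 of the 22518 probe sets passed. Those weights were 0.257, 0.56 and 3.13 for mutant samples 1, 2 and 3. Mutant sample 3, the highest for Slc2a3, thus counted most. Over the alternatives the adjusted p ran from 0.00765 to 1.

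The other probe sets of Slc2a3 were also highest in mutant samples 2 and 3, and they placed mutant sample 1 differently. The next brightest had 330.7, 1280 and 1717 in mutant samples 1, 2 and 3 against 250.8 to 311 in controls, with no overlap. A dimmer probe set had 29.1, 282.4 and 494.5 against 68.2 to 101.2, with mutant sample 1 the lowest of all. The brighter 2 carry the suffix _s_at or _x_at, which marks probes that may match several transcripts. The dimmer one has no such suffix, and it differed by 0.95 with all 6 samples (limma unadjusted p = 0.21). The remaining probe set was under the filter on low signals.

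Markers of other cells were set beside Slc2a3. The summed signal of 7 leukocyte genes was 7413 and 10129 in mutant samples 2 and 3 and 9505 to 9958 in control samples, and it was highest in mutant sample 1 (17357). Single genes of this list went both ways. In mutant sample 3, Lyz2, Cd68, Csf1r and Cd74 were above every control sample, Ptprc and Mrc1 were below, and Cx3cr1 was within the range. None was above every control sample in mutant sample 2. The summed signal of 4 neural and Schwann cell genes was 762.4 and 1064 in mutant samples 2 and 3 and 665 to 1115 in control samples. Of these, the neuronal genes Tubb3 and Elavl4 were under the filter on low signals. The sum of 6 erythroid genes was 4131 and 8858 in mutant samples 2 and 3 and 4973 to 6112 in control samples. The part of these cells in the Slc2a3 signal was not tested.

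Slc2a1, which encodes GLUT1, the main glucose transporter of basal keratinocytes, was higher in each mutant sample. Mutant samples 1, 2 and 3 read 8929.5, 9492 and 8948, and control samples 1, 2 and 3 read 6626, 8162 and 5492. The mutant samples lay close together and the groups did not overlap. The log2 difference was 0.45 (SE 0.15), a 1.37-fold ratio (limma unadjusted p = 0.0151), and 0.46 without mutant sample 1. It was 0.31 without control sample 3, the lowest sample (limma unadjusted p = 0.0691). The other tested probe sets of Slc2a1 gave 0.48 and 0.33 with overlap of the groups. Mutant sample 1 was within the control range in the first and, at 1716 against 2064 to 2383, below every control sample in the second. The summed basal keratinocyte signal was lowest in mutant sample 1, where the brightest Slc2a1 probe set was above every control sample.

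**Figure D1:**
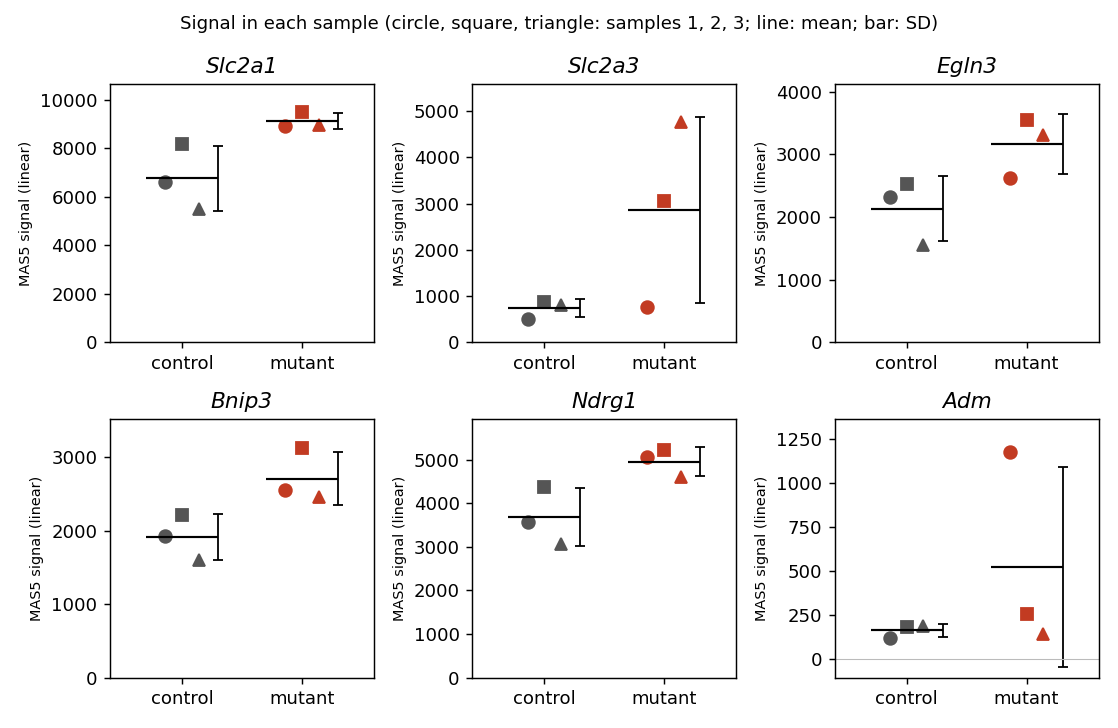
Linear MAS5 signal of 6 genes in each control (grey) and mutant (red) sample, with circle, square and triangle for samples 1, 2 and 3, a line for the group mean and a bar for the SD (n = 3). Slc2a1, Egln3, Bnip3 and Ndrg1 were higher in every mutant sample, Slc2a3 was high in mutant samples 2 and 3 (3054 and 4766), and Adm was high in mutant sample 1 (1180).

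The enzymes that trap and split glucose differed in direction. Of 9 tested genes, 5 had a positive and 4 a negative difference, with a median of 0.088, and none was past an unadjusted p of 0.05 in limma. Leaving out mutant sample 1 gave 7 positive of 9, against 49.0% of all genes, and a median of 0.25. Pfkl, Pfkfb3, Aldoa and Aldoc, 4 genes in all, were then higher at an unadjusted p under 0.05 in limma. In that setting 3.62% of all genes were called higher. None of the 9 was past the adjusted threshold. Hk1 and Hk2 encode the hexokinases that phosphorylate glucose. Hk1 had 1201.5, 1409 and 1278 in mutant samples 1, 2 and 3 and 1011 to 1198 in control samples, so that the groups did not overlap by a narrow margin. Its difference was 0.20 (SE 0.14), and another probe set of Hk1 gave -0.026. Hk2 ran from 1948 to 2907 in mutant and from 1705 to 2734 in control samples, with overlap.

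For the 3 phosphofructokinase subunits, which catalyse the committed step, the groups overlapped. Pfkm, the muscle subunit, had 1380 ± 184 in mutants against 1504 ± 130 in controls (SD, n = 3 each). Pfkp, the platelet subunit, had 1005, 791 and 630.4 in mutant samples 1, 2 and 3 and 602.4 to 746.8 in control samples. Its difference was 0.28 (SE 0.19), and its other tested probe set gave 0.057. Pfkl, the liver subunit, was ordered differently among mutant samples, at 1702, 3517.5 and 3209 against 2731 to 2860 in control samples. Mutant sample 1 was therefore the highest of all for Pfkp and the lowest of all for Pfkl. Pfkfb3 makes the activator of phosphofructokinase. It had 263, 528.2 and 366.7 in mutant samples 1, 2 and 3 against 234.1, 336.9 and 266.3 in control samples 1, 2 and 3, a difference of 0.40 (SE 0.26). Without mutant sample 1 its difference was 0.63 (limma unadjusted p = 0.0183, adjusted p = 0.583).

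Aldoa, the main aldolase, set mutant sample 1 apart from the other mutant samples. Its signal was 8250 in mutant sample 1, 19356 and 17442 in mutant samples 2 and 3, and 14425 to 17007 in control samples. Over 6 samples Aldoa differed by -0.12, and by 0.27 once mutant sample 1 was left out, and neither passed (limma adjusted p = 0.9999 and 0.675). All 5 tested probe sets of Aldoa had a negative difference with all samples, from -0.20 to -0.0081. Aldoc, a second aldolase gene active in brain, had 1412, 1709 and 1614 in mutant samples 1, 2 and 3 against 1479, 1364 and 1012 in control samples 1, 2 and 3, a difference of 0.31 (SE 0.17). Tpi1, the triose phosphate isomerase, repeated the pattern of Aldoa with 9905, 17095 and 16061 in mutant and 14398 to 15853 in control samples. Tpi1 differed by -0.093 on this probe set, and by -0.095 and 0.13 on its other tested probe sets.

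The enzymes of the later steps and of pyruvate's fate had 4 tested genes, with differences between 0.0052 and 0.14, a median of 0.052 and none past an unadjusted p of 0.05 in limma. Leaving out mutant sample 1 gave a median of 0.16 and a highest difference of 0.21, that of Pgam1, whose groups then did not overlap. Pgk1, phosphoglycerate kinase, had 17912 ± 2161 in mutants against 17003 ± 2350 in controls (SD, n = 3 each). Pgam1, phosphoglycerate mutase, had 5708, 8415 and 8213 in mutant samples 1, 2 and 3 and 6866 to 7590 in control samples. Ldha, which reduces pyruvate to lactate, had 13533, 20416 and 17662 in mutant and 16001 to 17939 in control samples. Both were lowest in mutant sample 1. The difference of Ldha was 0.0052 with all samples and changed sign after quantile normalization (-0.035) and median centring (-0.0061). Pdk1, the kinase that shuts off pyruvate dehydrogenase, had 2596 ± 492 in mutants against 2340 ± 241 in controls (SD, n = 3 each). The control probe sets of Gapdh, the dehydrogenase of this stage, gave 25840 to 30528 at the gene's 5′ end, and their 3′ to 5′ ratio was 0.757 to 0.82 on all arrays.

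**Figure D2:**
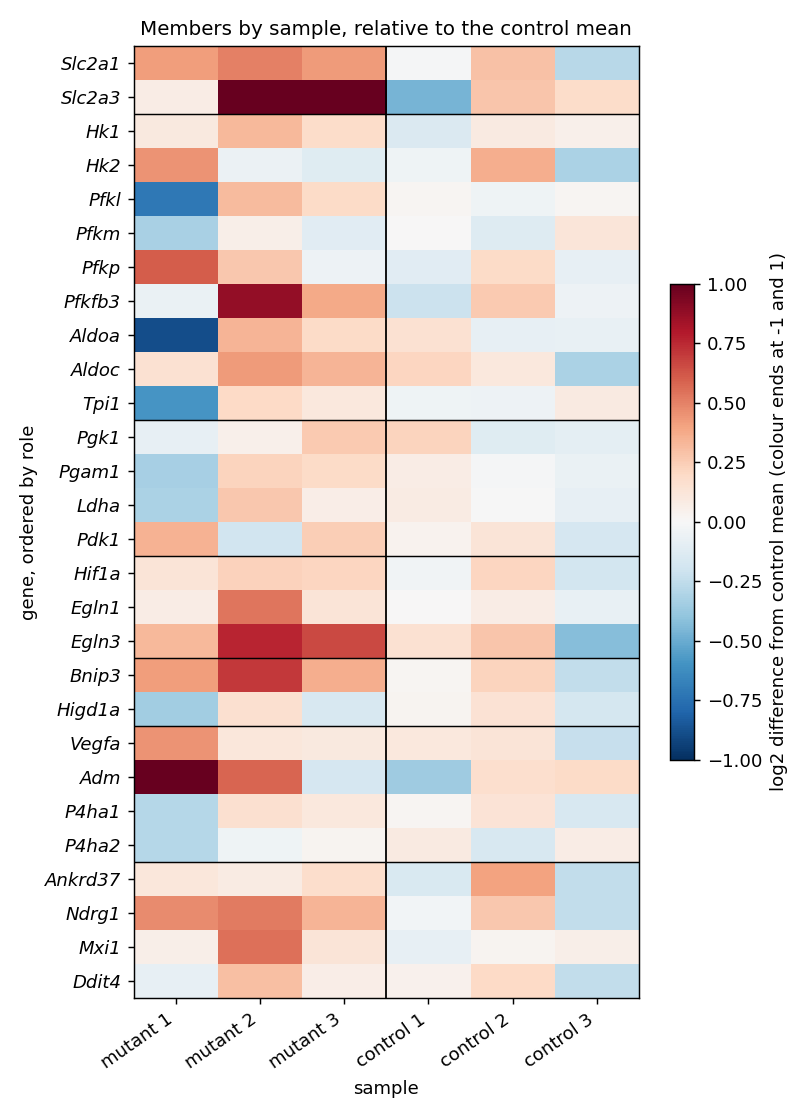
Log2 signal of each tested member in each sample minus its mean over the 3 control samples, with genes ordered by role and black lines between roles; colour ends at -1 and 1. Aldoa, Pfkl and Tpi1 are blue in mutant sample 1 and red in mutant samples 2 and 3, while Slc2a1, Egln3, Bnip3 and Ndrg1 are red in all 3 mutant samples.

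Of 13 tested hypoxia genes, 10 had a positive difference and the median was 0.22, against 11 of 15 and 0.088 for the glucose transporter and glycolysis genes together. Leaving out mutant sample 1 gave 12 of 13 and 0.21 for the hypoxia genes and 13 of 15 and 0.21 for the others. The gap between the medians was thus not seen without that sample. Hif1a, the oxygen-regulated factor, had 7529, 8075 and 7998 in mutant samples 1, 2 and 3 against 6741, 8005 and 6078 in control samples 1, 2 and 3. This was a difference of 0.19 (SE 0.13) with overlap of the groups, and the other tested probe sets of Hif1a gave 0.15 and -0.081. Egln3 encodes a prolyl hydroxylase that acts on that factor and is itself induced by it. Mutant samples 1, 2 and 3 read 2625, 3555 and 3315, and control samples 1, 2 and 3 read 2321, 2532 and 1551. The groups did not overlap, although mutant sample 1 lay close to control sample 2. The difference was 0.58 (SE 0.20), a 1.5-fold ratio (limma unadjusted p = 0.0187, adjusted p = 0.9999), and 0.37 without control sample 3 (limma unadjusted p = 0.0737). The other tested probe set of Egln3 had 472.7, 525.3 and 309.8 in mutant samples 1, 2 and 3 against 236.2 to 458.6 in controls, a difference of 0.36 with overlap (limma unadjusted p = 0.218). The main oxygen sensor Egln1 had 1904, 2632 and 1987 in mutant and 1722 to 1905 in control samples. Its difference was 0.24, and another probe set gave -0.061.

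Bnip3, whose product on the outer mitochondrial membrane recruits the autophagy machinery, was higher in every mutant sample. Mutant samples 1, 2 and 3 read 2553, 3127 and 2459, and control samples 1, 2 and 3 read 1930, 2221 and 1602. The lowest mutant sample lay above the highest control sample. The difference was 0.50 (SE 0.16), a 1.41-fold ratio (limma unadjusted p = 0.0134), and 0.54 without mutant sample 1. It was 0.38 without control sample 3 (limma unadjusted p = 0.0626). Higd1a, a HIF target of the inner mitochondrial membrane, did not follow it. Its signal was 9205, 13122 and 10484 in mutant and 10391 to 12979 in control samples, and all 3 of its probe sets had a negative difference.

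On their brightest probe sets, the secreted and matrix genes of the response overlapped between groups. Adm, which encodes the vasodilator peptide adrenomedullin, had 1180 in mutant sample 1, 253 and 140.8 in mutant samples 2 and 3, and 120.6, 183.6 and 186.8 in control samples 1, 2 and 3. Its difference was 1.04 (SE 0.61, limma unadjusted p = 0.123) and became 0.21 once mutant sample 1 was left out, so it rested on that sample. The summed signals of the decidua and uterus genes and of the smooth muscle genes were high in the same sample. The part of such tissue in the Adm signal was not tested. Vegfa, the vascular growth factor, had 801.6, 629.2 and 622.7 in mutants 1, 2 and 3 against 626.1, 637.3 and 490.7 in controls 1, 2 and 3. On this probe set it was also highest in mutant sample 1. The other tested probe set of Vegfa had 220, 228.3 and 248.6 in mutants 1, 2 and 3 against 185.7 to 210.1 in controls. There the groups did not overlap and mutant sample 3 was highest (difference 0.19, limma unadjusted p = 0.3285). P4ha1 and P4ha2, subunits of the collagen prolyl hydroxylases, differed by -0.0087 and -0.10.

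Among the intracellular targets, Ndrg1, a gene induced by hypoxia and by epithelial differentiation, was higher in every mutant sample. Mutant samples 1, 2 and 3 read 5054, 5213 and 4594, and control samples 1, 2 and 3 read 3572, 4381 and 3064.5. The groups did not overlap. The difference was 0.44 (SE 0.15), a 1.36-fold ratio (limma unadjusted p = 0.0164, adjusted p = 0.9999), and 0.32 without control sample 3 (limma unadjusted p = 0.0768). All 5 tested probe sets of Ndrg1 had a positive difference, and the other 4 gave 0.21 to 0.30 with overlap of the groups. In the dimmest of them mutant sample 1 was below every control sample, at 598.9 against 658.7 to 918.6. It was so in another as well, at 1375 against 1393 to 1716. Mxi1, a Myc antagonist, had 1501.6, 2118.5 and 1582 in mutant and 1358 to 1502 in control samples, with mutant sample 1 just within the control range. Mxi1 differed by 0.25 on this probe set and by -0.20 on its other tested probe set. Ddit4, an inhibitor of mTORC1, and Ankrd37 differed by 0.095 and 0.12 with overlap.

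**Figure D3:**
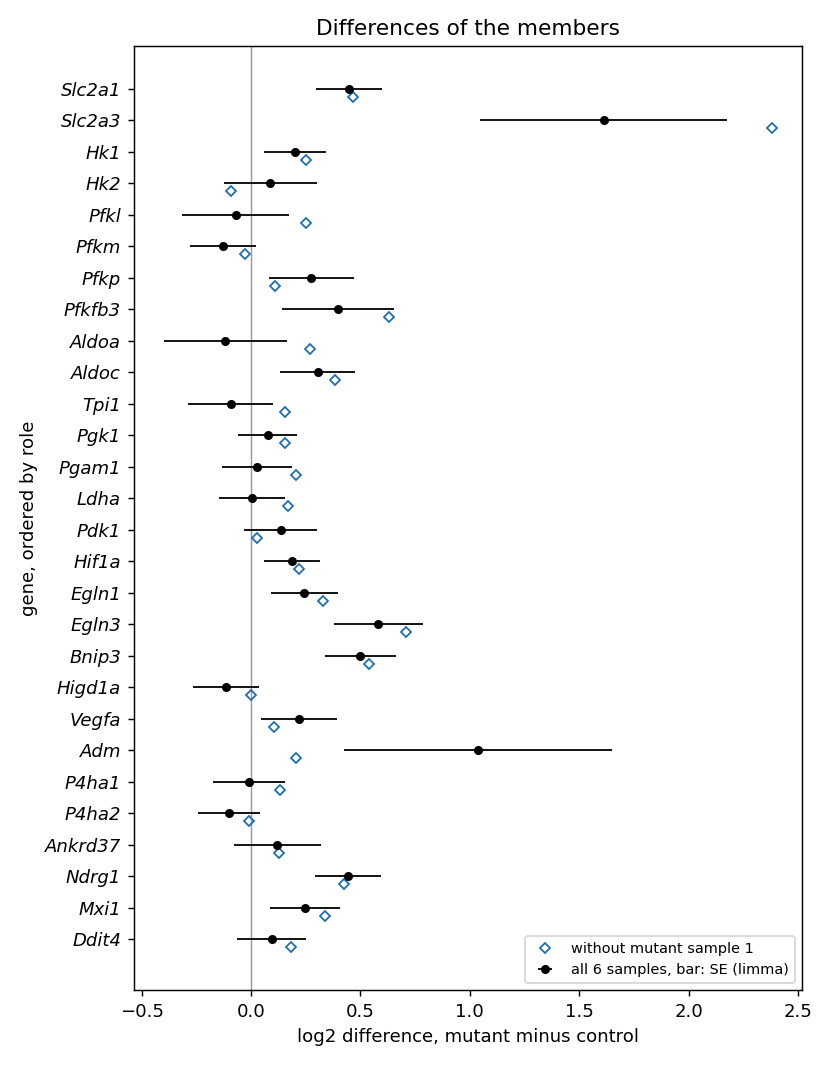
Difference in log2 signal, mutant minus control, for the 28 tested members, ordered by role. Black points with bars give the difference and its SE over all 6 samples, and open diamonds the difference without mutant sample 1, which moved Slc2a3 from 1.61 to 2.38, Aldoa from -0.12 to 0.27 and Adm from 1.04 to 0.21.

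Across samples, mutant sample 2 held the highest signal for 18 of the 28 members, where it did so for 21% of all genes. Control sample 3 held the lowest for 11 (13.8% of all genes) and mutant sample 1 for 9 (30.9%). The median log2 signal of the members relative to their control mean was 0.074, 0.29 and 0.18 in mutant samples 1, 2 and 3, and 0.011, 0.13 and -0.088 in control samples 1, 2 and 3. Mutant sample 1 was thus below control sample 2 by this measure. It was below every control sample for 9 members, namely Pfkl, Pfkm, Aldoa, Tpi1, Pgam1, Ldha, Higd1a, P4ha1 and P4ha2, as for 37.9% of all genes. Mutant samples 2 and 3 were both above every control sample for 14 members, and in none were both below, where 11.3% of all genes were higher and 11.1% lower without overlap in those 5 samples. These 14 included 4 of the 9, Aldoa, Pfkl, Pgam1 and Tpi1. The beta-actin 3′ to 5′ ratio, a sign of RNA integrity, was 1.69, 1.53 and 1.36 in mutant samples 1, 2 and 3 and 1.37 to 1.48 in control samples, and its part in these patterns was not tested.

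Other genes of the same pathways were taken from lists beyond the 33, and the genes named are those of smallest p in each list. Of 17 other glycolysis genes tested, 10 had a positive difference, the median was 0.071, and none was past an unadjusted p of 0.05 in limma. Leaving out mutant sample 1 gave 8 of 17, a median of -0.036 and 1 gene higher past that p, where 3.62% of all genes were called higher. Pgam2, the muscle phosphoglycerate mutase, was lower in every mutant sample, at 1553.5, 1584 and 1534.5 against 2039, 1636 and 2340 in control samples. Its difference was -0.34 (SE 0.15, limma unadjusted p = 0.0531). The summed signal of 12 skeletal muscle genes was 91533 to 93828 in mutant and 93805 to 111980 in control samples, and its part in the Pgam2 value was not tested. Pfkfb4, a relative of Pfkfb3, differed by -0.24.

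Of 42 other genes of the HIF pathway tested, 24 had a positive and 18 a negative difference, with a median of 0.02. At an unadjusted p under 0.05 in limma there were 3 higher and 1 lower, where 1.58% of all genes were called higher and 1.84% lower. None passed after adjustment over all probe sets. Hmox1, which encodes the heme-degrading enzyme heme oxygenase, was lower in every mutant sample. Mutants 1, 2 and 3 read 302.4, 379.1 and 418.7 against 924.1, 594.3 and 1341 in controls 1, 2 and 3, a difference of -1.26 (SE 0.27, limma unadjusted p = 0.00134, adjusted p = 0.571). The transferrin receptor gene Tfrc, which is both a HIF target and a marker of iron demand, had 2562, 2922 and 3251 in mutants 1, 2 and 3 against 1709, 1746 and 2215 in controls 1, 2 and 3. Its difference was 0.62 (SE 0.15, limma unadjusted p = 0.00302, adjusted p = 0.818), and all 3 of its tested probe sets had a positive difference. Of 4 erythroid genes tested, the embryonic globin genes Hbb-y and Hba-x differed by 1.14 and 0.997 (limma unadjusted p = 0.0272 and 0.0475, adjusted p = 0.9999 for both), with overlap of the groups. The erythroid genes Alas2 and Slc4a1 differed by -0.27 and -0.15. The sum of the 6 erythroid genes was 5718, 4131 and 8858 in mutant samples 1, 2 and 3 against 4973 to 6112 in controls, and the part of these cells in the Tfrc value was not tested. Cited2, a HIF target that restrains the factor, differed by 0.48, with no overlap between groups. Gys1, a glycogen synthase gene, differed by 1.08 with overlap, and 1 of its 2 tested probe sets was positive. Without mutant sample 1 the positive count was 32 of 42 and the median 0.13.

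Genes of pyruvate dehydrogenase and of the mitochondrial TCA cycle had 15 of 21 positive differences and a median of 0.089. This was 12 of 21 and 0.021 when mutant sample 1 was left out. Sdha, a subunit of succinate dehydrogenase, had 4975, 4877 and 4742 in mutants 1, 2 and 3 against 3885, 3843 and 3433 in controls 1, 2 and 3. The groups were well separated, with a difference of 0.39 (SE 0.11, limma unadjusted p = 0.00802, adjusted p = 0.9999), and all 3 tested probe sets of Sdha were positive. Mdh2, the mitochondrial malate dehydrogenase, had 17291, 14669 and 13593 in mutant and 13047 to 13096 in control samples. Of 6 pentose phosphate genes, 4 had a positive difference, and none was past an unadjusted p of 0.05. Their median of 0.03 was 0.11 without mutant sample 1. The transketolase gene Tkt and Pgd differed by 0.22 each.

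**Figure D4:**
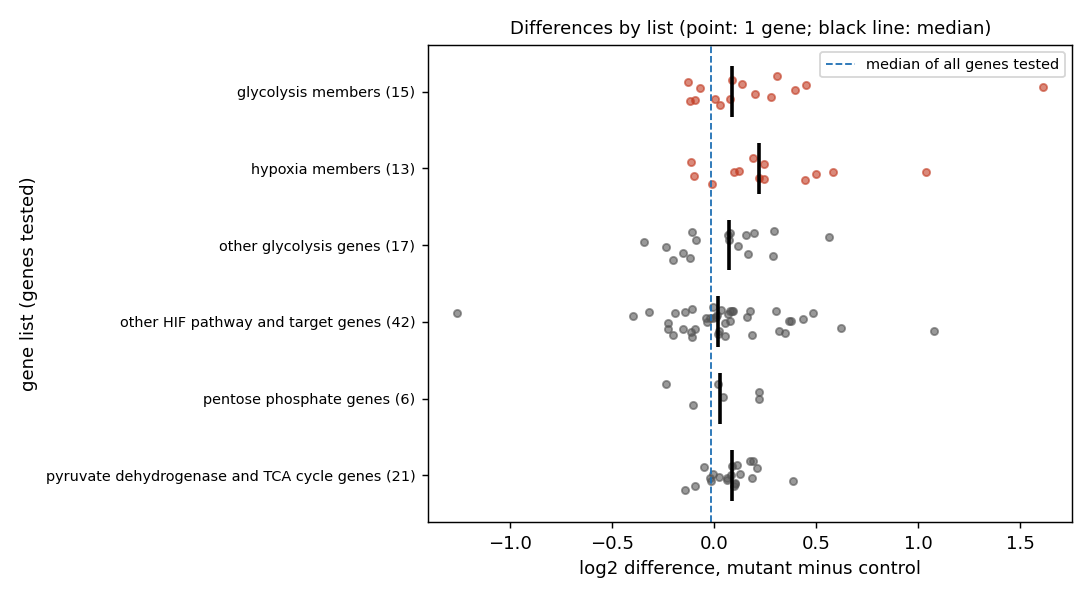
Difference in log2 signal, mutant minus control, of each tested gene of the glycolysis and hypoxia members (red) and of 4 other lists (grey), with a black line at each list's median and a dashed line at the median of all genes tested (-0.014). The list medians lie between 0.02 and 0.22, and single genes such as Hmox1 (-1.26) and Slc2a3 (1.61) lie far outside them.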

How the data were processed

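The authors deposited 1 MAS5 signal per probe set and array, a linear intensity. The submitters' processing notes name MAS5 but no version, and the trimmed mean (2% at each end) was 500 on every array. Of 45101 probe sets, 34958 had 1 gene symbol in the platform annotation, 932 several and 9211 none. Signals were analysed as log2(signal + 24.5), the 20th percentile of all values, so folds of dim genes are understated. The 64 control probe sets were left out, and 22518 probe sets with a mean log2 above the median entered a two-sided limma test (version 3.58.1, R 4.3.3, eBayes with trend). P-values were adjusted by Benjamini-Hochberg across those probe sets, with 0.05 as the threshold. The script was tested on simulated data with known differences, at an adjusted p under 0.05 in limma. It called 35% of log2 differences of 1 and 86% of those of 2, and 5.47% of its calls were false. Smaller differences, as most members had, were not simulated. Members and lists were chosen with earlier results of these data known. Named were members past an unadjusted p of 0.05 or differing by at least 0.4 (all samples), other members by group, and up to 4 genes of smallest p per other list. List symbols were updated through RefSeq. Lists of basal and suprabasal keratinocyte, fibroblast, endothelial, erythroid, muscle, decidual, adipocyte, cartilage, neural and leukocyte markers were summed per sample. Promoters came from RefSeq (GRCm38.p6). Alternatives were other pseudocounts, filters, normalizations, variance models, array weights, a replicate block, samples left out, and other probe set choices. Figures were drawn with matplotlib 3.10.9.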

Additional observations from a re-analysis of the deposited data

How the results depend on the processing

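No member passed an adjusted p of 0.05 in limma except Slc2a3, which did so with array weights and without mutant sample 1 (1 member each). Leaving out 1 sample gave 0 to 1 members past the adjusted and 1 to 11 past the unadjusted threshold (1 without control sample 3, 3 without mutant sample 2 or control sample 1, 11 without mutant sample 1), a median member difference of 0.075 to 0.26, and 16 to 25 positive members. Without _s_at, _x_at and _a_at probe sets, 2 of 20 members were past the unadjusted threshold. Over all probe sets, 1 passed; 106 did with array weights, 8 with the replicate block and 1 to 39 with 1 sample left out (2 without mutant sample 2, 3 without control sample 2, 39 without mutant sample 1). Samples sharing a number had deviations that correlated at -0.0525, -0.0735 and 0.115, and 2 of 6 samples correlated best with their own number, so the numbers were not taken as pairs; the replicate block moved no member past the threshold.

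Of 523 member values under alternatives, 26 in 12 genes had the other sign, none past the adjusted threshold; the cause was not tested. With array weights these were Aldoa 0.14, Hk2 -0.092, P4ha1 0.0798, P4ha2 0.00087, Pfkl 0.15 and Tpi1 0.0799. Ldha was at -0.035 and -0.0061 after quantile normalization and median centring. With 1 sample left out, Aldoa ran from -0.35 to 0.27, Ankrd37 from -0.0031 to 0.32, Ddit4 from -0.027 to 0.19, Higd1a from -0.25 to 0.0014, Hk2 from -0.092 to 0.27, Ldha from -0.13 to 0.17, P4ha1 from -0.092 to 0.13, Pfkl from -0.26 to 0.25, Pgam1 from -0.071 to 0.21, Pgk1 from -0.015 to 0.19 and Tpi1 from -0.24 to 0.15. The median of the other glycolysis list was -0.11 with the stricter filter, -0.091 without _s_at, _x_at and _a_at probe sets and -0.063 to 0.089 with 1 sample left out. That of the pentose phosphate list was 0.11 with array weights, -0.11 without those probe sets and -0.0081 to 0.11 with 1 sample left out. The number of arrays, 3 per group with 4 residual degrees of freedom, limits the precision.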

Other observations

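Among the control samples, control sample 2 was highest and control sample 3 lowest for 13 of the 28 tested members, a pattern chosen after its values were seen, and for 17.5% of all genes tested. The 13 were Slc2a1, Hk2, Pdk1, Hif1a, Egln1, Egln3, Bnip3, Higd1a, Vegfa, P4ha1, Ankrd37, Ndrg1 and Ddit4. These include 10 of the 13 hypoxia genes. Control sample 3 was the lowest control for 16 of the 28 members (57.1%), against 32.8% of all genes.

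The samples with high Slc2a3 were those with the lowest signal of Flg, the filaggrin precursor of the granular layer. Flg was at 2967, 647.5 and 251.9 in mutant samples 1, 2 and 3, where Slc2a3 was at 754.5, 3054 and 4766. In control samples Flg was at 8080 to 13151 and Slc2a3 at 510.6 to 870.8. Not every gene of the suprabasal keratinocyte list followed Flg. Of the 8 tested, 3 had a positive and 5 a negative difference. Flg and Dsc1 were lower in every mutant sample. Lor was at 26127, 40018 and 33069 in mutant samples 1, 2 and 3 and 33114 to 36754 in control samples. The summed signal of the 8 genes was 166670, 205510 and 167090 against 169110 to 207860. The pair of Flg and Slc2a3 was chosen after the values were seen, and no test was made of it.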
